A study of Homo sapiens with 23 samples.

Results

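The 11 xenograft tumours described here came from 3 knockout (KO) lines of SCC-13, a human cutaneous squamous cell carcinoma cell line, and are 11 of the 23 tumours in the series. They were compared as 8 tumours of lines 2B8 (n = 4) and 1G10 (n = 4) against the 3 tumours of line 2F7. The members were chosen by the measured level of the targeted gene: 2F7 is the KO line whose level of the targeted gene lies nearest the wild-type (WT) lines. All 3 KO lines carried the label hFWE KO, where hFWE is the human Flower gene, CACFD1, and the remaining 12 tumours came from the WT lines 5B2, 6C9 and 6C10 (n = 4 each). Cells of every line were grown under the skin of the flank in NCG mice, an immunodeficient strain, in a mixture with Matrigel, and tumours were taken 26 days after injection. Poly(A) RNA from 500 ng of total RNA per tumour was sequenced. The sources used here do not say whether each line is a single clone or where its edit lies. Tumours of a line share that line, and the p-values below reflect variation among tumours, not among independently made lines.

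Flower is a membrane protein known from cell competition and calcium-dependent membrane traffic, and it is made as several splice isoforms. In stratified epithelium, basal keratinocytes attached to the basement membrane by integrins and laminin move upward, switch their keratins, and build a cornified envelope from cross-linked proteins such as loricrin, filaggrin and the late cornified envelope proteins. Squamous carcinoma keeps part of this programme, and SMAD7 is an inhibitory SMAD that is itself switched on by TGF-beta signalling and then limits it.

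Upstream sequence is shown for 4 genes on which the account turns: the targeted gene, the only gene past the test threshold, and a pair of cornified envelope genes that were lower in every tumour of 2B8 and 1G10. Each is the 250 bases before the RefSeq start site nearest the annotated gene start, in GRCh38.p14, 5' to 3', in lower case. Any match to the AP-1 motif TGANTCA, the SMAD palindrome GTCTAGAC or the TEAD motif GGAATG (either strand) is in capitals. The windows lie at chr9:133459728-133459977, plus strand (CACFD1), chr18:48950966-48951215, minus strand (SMAD7), chr1:153259437-153259686, plus strand (LORICRIN) and chr13:77535456-77535705, plus strand (SCEL).
CACFD1: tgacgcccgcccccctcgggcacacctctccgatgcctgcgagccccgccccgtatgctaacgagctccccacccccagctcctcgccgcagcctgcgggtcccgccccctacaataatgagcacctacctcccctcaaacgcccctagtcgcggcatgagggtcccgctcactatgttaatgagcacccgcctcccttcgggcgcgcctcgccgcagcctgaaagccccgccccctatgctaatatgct
SMAD7: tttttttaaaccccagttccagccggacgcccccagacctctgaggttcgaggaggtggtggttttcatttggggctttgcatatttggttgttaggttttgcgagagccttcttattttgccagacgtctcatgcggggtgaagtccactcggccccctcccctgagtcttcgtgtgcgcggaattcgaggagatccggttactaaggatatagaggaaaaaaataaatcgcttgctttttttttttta
LORICRIN: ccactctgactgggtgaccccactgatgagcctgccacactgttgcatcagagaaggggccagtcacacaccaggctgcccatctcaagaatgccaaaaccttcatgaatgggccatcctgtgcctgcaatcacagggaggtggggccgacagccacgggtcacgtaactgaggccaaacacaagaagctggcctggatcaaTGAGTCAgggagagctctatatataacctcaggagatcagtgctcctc
SCEL: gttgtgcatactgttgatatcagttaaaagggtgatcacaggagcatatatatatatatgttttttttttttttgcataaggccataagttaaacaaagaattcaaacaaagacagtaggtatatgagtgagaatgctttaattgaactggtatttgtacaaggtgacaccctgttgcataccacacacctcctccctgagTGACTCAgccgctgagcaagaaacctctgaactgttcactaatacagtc
LORICRIN and SCEL each held 1 match to the AP-1 motif, and the CACFD1 and SMAD7 windows held none of the 3 motifs. SMAD7 has 3 RefSeq start sites, and only the window shown was searched, so matches near its other start sites are not excluded. Among all 35116 such RefSeq windows, 6.57% held the AP-1 motif, 0.182% the SMAD palindrome and 11.9% the TEAD motif. Over the 10929 tested genes with a window, 4.13% held the AP-1 motif. The share was 9.6% (12 of 125) among genes lower in all 8 tumours than in every 2F7 tumour, and 2.9% (4 of 138) among genes higher in all 8. For the TEAD motif the shares were 9.74% over tested genes, 8.8% among the lower and 9.42% among the higher genes, and the SMAD palindrome was in 0.183% of tested genes and in 0 of either set. These shares were not tested, and a match is a run of letters, not a shown binding site.

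CACFD1 (chr9:133459965-133470849, hg38, plus strand) set the split and is given without a test. Its normalized values were 369.5, 349 and 308 in 2F7, 321, 277, 245 and 218 in 2B8, and 281, 255, 246 and 167 in 1G10. The 3 tumours of 2F7 and the 8 others did not separate fully, since the highest 2B8 tumour lay above the lowest 2F7 tumour. The difference was -0.46 on the log2(value + 1) scale, and WT tumours ranged from 286 to 432, median 369.6. All 3 of the 2F7 values lay inside the WT range. The transcript was present in every KO tumour, and a total over the gene does not show which isoform or exon is left.

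**Figure D1:**
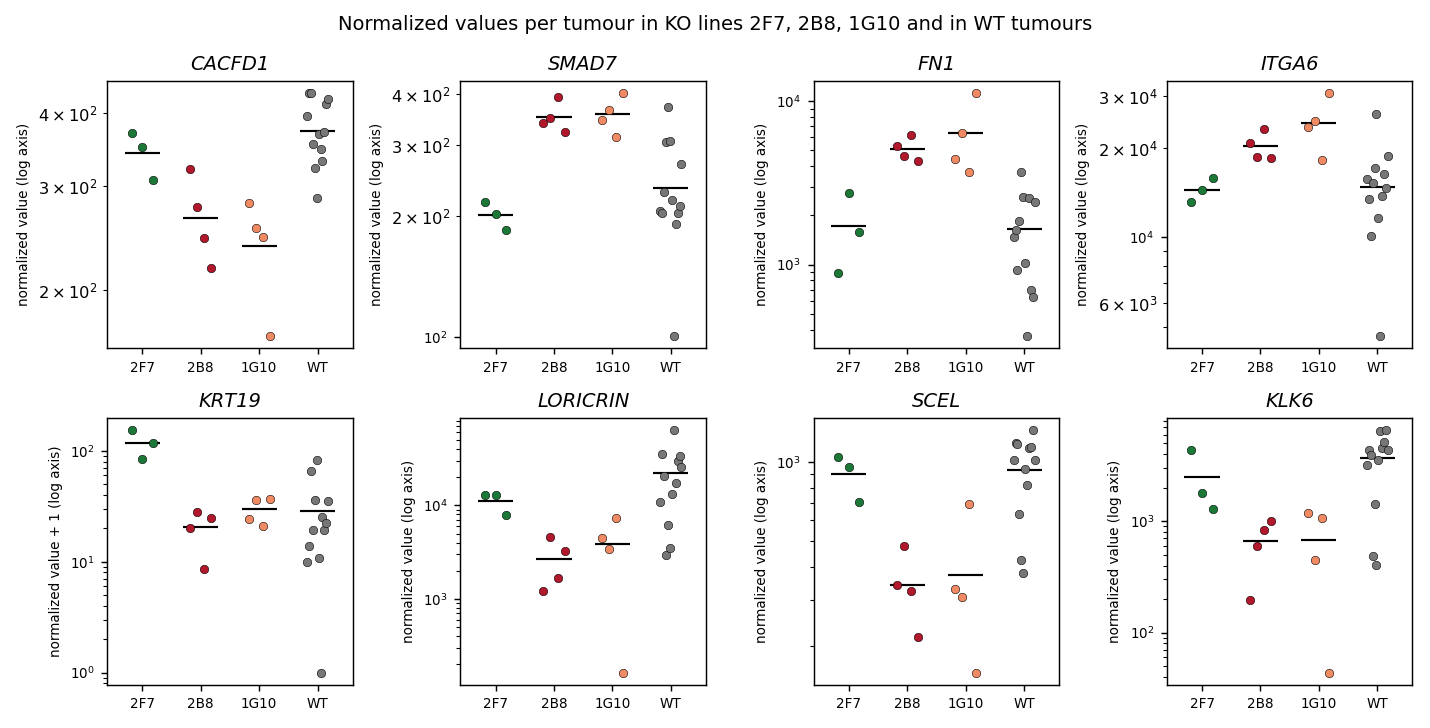
Normalized value (log axis, per tumour) of 8 genes in KO lines 2F7 (n = 3), 2B8 (n = 4) and 1G10 (n = 4) and in the 12 WT tumours; each point is a tumour and each bar the group mean. SMAD7, FN1 and ITGA6 were higher, and KRT19, LORICRIN, SCEL and KLK6 lower, in all 8 tumours of 2B8 and 1G10 than in every 2F7 tumour, while CACFD1 overlapped. The WT points include 6C9 5533, a library with an estimated 2.04 M reads.

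SMAD7 (chr18:48919853-48950966, hg38, minus strand), the inhibitory SMAD described above, was the only one of 15947 tested genes to pass an adjusted p of 0.05 (0.00627% of genes called higher). Its values were 216, 202 and 184 in 2F7, 339, 348, 394 and 323 in 2B8, and 346, 366, 313 and 403 in 1G10. Every tumour of 2B8 and 1G10 lay above every 2F7 tumour. SMAD7 rose by 0.81 (log2, SE 0.10; limma adjusted p = 0.040). The difference was 0.80 for 2B8 and 0.82 for 1G10, each against the same 3 tumours of 2F7. WT tumours ranged from 100.5 to 372, median 215, so the 2F7 values lay near the WT median. The WT tumours 5B2 5529, 6C9 5530 and 6C9 5531 stood at 305, 372 and 306, and the others from 100.5 to 268. The lowest was 6C9 5533, whose library held an estimated 2.04 M reads and is among the 23 tumours of the fit below. The call was lost on leaving out any 1 tumour other than 1G10 5548 (limma adjusted p 0.051 to 0.242), although the difference stayed between 0.75 and 0.87. It was also lost after rescaling the libraries to the same total (limma adjusted p = 0.246) or upper quartile (limma adjusted p = 0.231), with 1 mean per line (limma adjusted p = 0.104), with all 23 tumours in the fit (limma adjusted p = 0.99991), with the fibroblast score as a covariate (limma adjusted p = 0.122), and without either line.

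No gene passed as lower in limma, where 653 had an unadjusted p under 0.05 (4.09%) and 745 (4.67%) did in the higher direction, 1398 in all (8.77%). The next lowest adjusted p was 0.281. No gene passed in limma for 2B8 against 2F7 (1025 at an unadjusted p under 0.05, 6.43%), for 1G10 against 2F7 (1305, 8.18%), for 2B8 against 1G10 (538, 3.37%) or in the F test among the 3 lines (943, 5.91%). All other genes are therefore described by their values. The 8 tumours lay wholly above the 3 for 180 genes (1.13%) and wholly below for 177 (1.11%), 357 in all (2.24%), and the median difference over all genes was 0.01. Without 2F7 5540 these counts were 1056 and 1185.

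**Figure D2:**
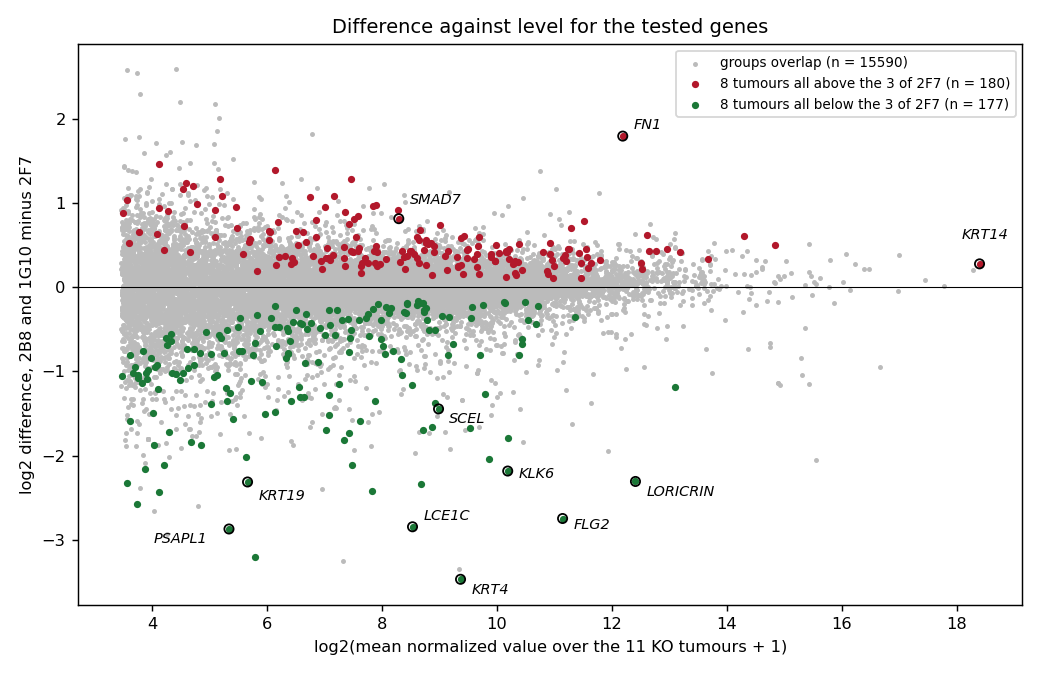
Log2 difference, 2B8 and 1G10 minus 2F7, against log2 of the mean normalized value plus 1 over the 11 KO tumours, 1 point per tested gene. Coloured points are the 180 and 177 genes whose groups did not overlap; keratins, envelope genes and FN1 carry names.

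The genes named next were chosen after their values were seen, as the 12 in each direction with the smallest p among genes whose groups did not overlap. FN1, the matrix protein fibronectin, had values of 889, 2727 and 1579 in 2F7, 5319.8, 4633, 6179.8 and 4304 in 2B8, and 4400.5, 6420.3, 3661 and 11194 in 1G10. All 8 tumours exceeded the 2F7 tumours, and WT tumours ranged from 365 to 3706, median 1546. The lowest WT value was again that of 6C9 5533. The FN1 difference was 1.80 (SE 0.33, limma adjusted p = 0.339). SDC2, a heparan sulfate proteoglycan of the cell surface, differed by 0.95 (SE 0.21, limma adjusted p = 0.339), and MFAP2, a microfibril protein, by 0.74 (SE 0.16, limma adjusted p = 0.339). FSTL3, a secreted binder of activins, ran from 506 to 667 in 2F7 and from 727 to 1031 in the 8 others. ZNF703, a zinc finger repressor, ran from 262 to 306 and from 360.1 to 515. The others included SMAD7, HCFC1R1, FIBCD1, RTN4RL1, ZNF777 and INKA2. For all 12, the 8 tumours lay above the WT median, and for 6 they lay wholly inside the WT range. FSTL3 stood at 1103, 1158 and 1208 in the WT tumours 5B2 5529, 6C9 5530 and 6C9 5531, and from 472 to 655 in the other WT tumours. Reads cannot be assigned with certainty where the span of a named gene overlaps another gene, as it does for HCFC1R1, RTN4RL1, MFAP2, INKA2, ATP6V1C2, SCEL, ARHGAP29, GGCT, FLG, FLG2, ASPRV1, KLK5, KLK6, KLK7, SPINK5, KRT10, DEGS2, ITGA6, CD151, IFIT3, IRF9, PMEPA1, P4HA2, CYP26B1, MMP1 and IVL, since the strand setting of the counting is unknown here.

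In the lower direction the first gene was KRT19, a keratin of simple and glandular epithelium. Its values were 153, 82.9 and 117 in 2F7, 19.3, 27.3, 7.54 and 23.6 in 2B8, and 23.2, 35.2, 20.1 and 35.9 in 1G10. The 2F7 tumours stood above the 8 others, and WT tumours ranged from 0 to 81.7, median 19.7, so here the 8 tumours and not 2F7 lay nearer the WT median. The value of 0 was that of 6C9 5533, the library with an estimated 2.04 M reads. The KRT19 difference was -2.31 (SE 0.38, limma adjusted p = 0.281). UCA1, a long noncoding RNA whose span overlaps another noncoding gene, ran from 81.3 to 88.3 in 2F7 and from 24.97 to 49.6 in the others. CCNA1, a cyclin, ran from 86.1 to 182 and from 28.9 to 64.4, and SGK1, a serum and glucocorticoid induced kinase, from 703 to 919 and from 308 to 583. PSAPL1, which lies within the span of SORCS2, had the largest difference of the 12, -2.87 (SE 0.63, limma adjusted p = 0.339). The rest were LINC02635, ATP6V1C2, LINC01348, LCE1C, SCEL, ARHGAP29 and GGCT. Of these 12, the 8 tumours all lay below the WT median for 11, and wholly inside the WT range for 4. LCE1C stood at 140, 291 and 57.0 in the WT tumours 5B2 5529, 6C9 5530 and 6C9 5531, and from 1059 to 6513 in the other WT tumours.

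Cornified envelope genes were mostly lower in 2B8 and 1G10. Of 42 tested, 33 had a negative difference, 14 were lower and 5 higher at an unadjusted p under 0.05 (4.09% and 4.67% of all genes), and none passed adjustment. The list median was -0.74, beside 0.01 over all genes, with -0.66 for 2B8 and -0.62 for 1G10. Loricrin, the main protein of the envelope by mass, had LORICRIN values of 12811, 13019 and 7818 in 2F7, 1214, 4615, 1669 and 3256 in 2B8, and 4458, 3392, 7398 and 163 in 1G10. All 8 lay below the 3, but 1G10 5548 came close to the lowest 2F7 tumour. Its difference was -2.31 (SE 0.86, limma adjusted p = 0.483). SCEL, which encodes the envelope precursor sciellin, had values of 1042, 959.6 and 705 in 2F7, 342, 481, 323 and 216 in 2B8, and 329.5, 306, 691 and 158 in 1G10. The 8 tumours again lay below the 3, by -1.45 (SE 0.34, limma adjusted p = 0.339), with 1G10 5548 nearest.

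LCE1B, LCE1C and FLG2 completed the 5 envelope genes whose groups did not overlap, against 1.11% of all genes. LCE1C, a late cornified envelope gene, had values of 781, 1147 and 833 in 2F7, 72.4, 236, 157 and 333 in 2B8, and 150.2, 137, 191 and 16.5 in 1G10. LCE1B differed by -2.34 (SE 0.58, limma adjusted p = 0.346) and FLG2, a filaggrin relative, by -2.75 (SE 0.87, limma adjusted p = 0.43). The LCE genes are close copies, so reads may be split among them. FLG, the precursor of filaggrin, had values of 116293, 147943 and 43696 in 2F7, 17148, 50802, 22421 and 26942 in 2B8, and 42727, 24147, 36093 and 2719 in 1G10, and the third 2F7 tumour lay within the range of the 8. Not all envelope genes shared the direction. The small proline-rich genes SPRR2A, SPRR2B, SPRR2D and SPRR2G, also close copies and chosen after their values were seen, had differences of 1.38, 1.82, 0.81 and 1.12, while SPRR3 had -1.54 (limma adjusted p 0.387 to 0.531 over these 5). SPRR2A ran from 418 to 1095 in 2F7 and from 933 to 3900.2 in the others, which overlap. IVL, encoding the early envelope protein involucrin, differed by 0.03 (SE 0.34, limma adjusted p = 0.987).

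Suprabasal keratins and spinous markers had a median of -0.76 over 26 genes, 25 of them negative and 5 lower at an unadjusted p under 0.05 (4.09% of all genes). KRT1 and KRT10, the keratin pair of the spinous layer, overlapped between groups. KRT10 values were 113465, 181589 and 121077 in 2F7, 68183, 122434, 76655 and 107416 in 2B8, and 147355, 65249.7, 132008 and 6798 in 1G10. Only 1G10 5549 was far below the rest. KRT77, ASPRV1 (a protease that processes filaggrin) and C1orf68 did not overlap (1.11% of all genes were lower without overlap), and ASPRV1 ran from 13291 to 13912 in 2F7 and from 1485 to 12323 in the others.

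Epidermal proteases and their inhibitors had a median of -1.03 over 21 genes, 20 of them negative and 11 lower at an unadjusted p under 0.05 (4.09% of all genes). The kallikreins are serine proteases that shed cornified cells. KLK6 values were 4349, 1797 and 1279 in 2F7, 198, 604, 841 and 1001 in 2B8, and 1179, 445, 1068 and 43.7 in 1G10, with no overlap and a difference of -2.18 (SE 0.83, limma adjusted p = 0.492). KLK5, KLK7, KLK10 and KLK11 overlapped, with differences of -1.62, -1.22, -1.40 and -1.26. SPINK5, an inhibitor of kallikreins, differed in the same direction, by -0.95 (SE 0.36, limma adjusted p = 0.492). Barrier lipid genes had a median of -0.48 over 35 genes, and 33 were negative. DEGS2, an enzyme of phytoceramide synthesis, ran from 314 to 463 in 2F7 and from 36.5 to 303 in the others.

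The mucosal and simple keratins had the lowest median of the lists, -2.31, over only 5 tested genes, and it ran from -2.63 to -0.92 over the alternatives, the last with no filter on low values. KRT4, a keratin of mucosal epithelium, had values of 3675, 997 and 948 in 2F7, 108, 267, 295 and 366 in 2B8, and 267, 144, 173 and 4.68 in 1G10. The groups did not overlap. Its partner KRT13 had values of 3992, 1449 and 357 in 2F7, 75.1, 216, 209.5 and 145 in 2B8, and 55.2, 66.6, 439 and 68.7 in 1G10, and 1G10 5548 lay above the lowest 2F7 tumour. 2F7 5538 was the highest of the 3 for both. Among wound keratins, KRT6A differed by 0.01 and KRT16 by 0.08. Desmosome genes had a median of 0.01 and gap junction genes of 0.02, and both medians change sign under some alternatives.

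**Figure D3:**
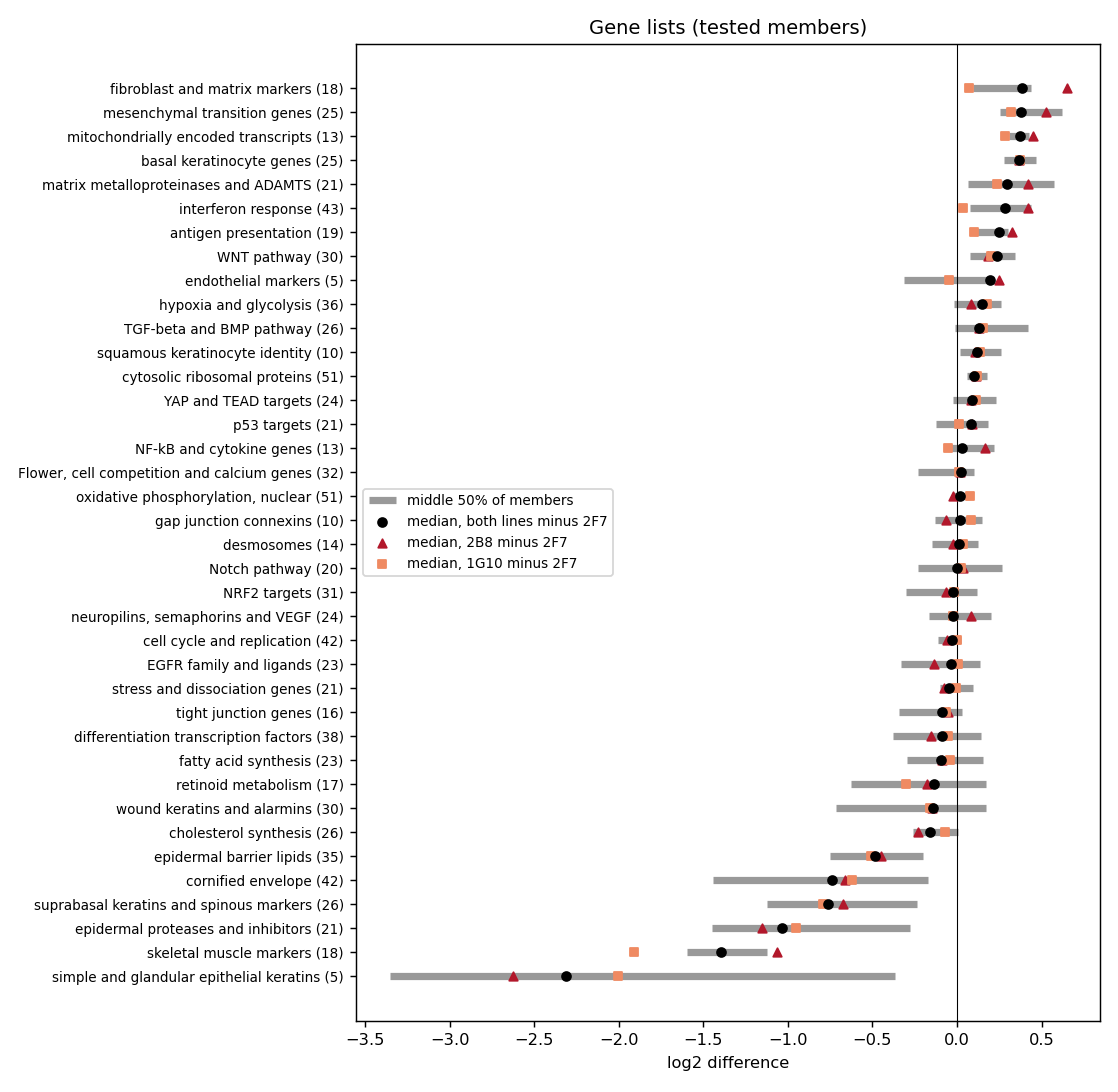
Median log2 difference of each gene list with at least 5 tested members (number in brackets), for both lines together (black), 2B8 (triangles) and 1G10 (squares), each minus 2F7, with the middle 50% of members as a bar. Envelope, suprabasal, protease, barrier lipid and simple keratin lists lie to the left, as do skeletal muscle markers (median -1.40). Differentiation transcription factors lie near 0 (-0.09), and basal, mesenchymal and matrix lists lie to the right. Lines 2B8 and 1G10 share the 2F7 tumours.

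Basal keratinocyte genes were mostly higher in 2B8 and 1G10. Of 25 tested, 24 had a positive difference, 12 were higher at an unadjusted p under 0.05 (4.67% of all genes) and 5 did not overlap (1.13% of all genes), with a median of 0.37. The mean log2(value + 1) was 12.78 to 12.87 in 2F7, 13.05 to 13.29 in 2B8 and 12.82 to 13.44 in 1G10. In WT tumours it was 11.72 to 13.25, with 12.99, 13.03 and 13.25 in 5B2 5529, 6C9 5530 and 6C9 5531, so some WT tumours reached the level of 2B8 and 1G10. KRT14, the basal keratin, had values of 279754, 298144 and 317643 in 2F7, 359633, 330544, 342005 and 336349 in 2B8, and 360792, 372763, 367257 and 429157 in 1G10. The 8 tumours lay above the 3, but the difference was only 0.28 (SE 0.27, limma adjusted p = 0.817). limma draws this SE partly from the spread of other genes at a similar level, so it does not show the spread of KRT14 alone. ITGA6, an integrin subunit of the hemidesmosome, had values of 13129, 14443 and 15821 in 2F7, 20759, 18671, 23190.5 and 18588 in 2B8, and 23489, 24618, 18218 and 30635 in 1G10. No tumours overlapped, and the difference was 0.61 (SE 0.16, limma adjusted p = 0.387). COL17A1, also of the hemidesmosome, differed by 0.50, and CD151, a tetraspanin partner of laminin-binding integrins, by 0.36. TP63, the basal transcription factor, overlapped and differed by 0.30 (SE 0.12, limma adjusted p = 0.525).

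Mesenchymal transition genes had a median of 0.38 over 25 genes, 23 of them positive. FN1 and TGFBI were among the 3 that did not overlap (1.13% of all genes were higher without overlap). TGFBI, a matrix protein induced by TGF-beta, ran from 5934 to 6413 in 2F7 and from 6740.3 to 14458 in the others. Among metalloproteinases, MMP14, a membrane-bound collagenase, ran from 7317 to 7566 and from 8707 to 10836. Its difference was 0.42 (SE 0.10, limma adjusted p = 0.339), and MMP1, the interstitial collagenase, overlapped. The TGF-beta and BMP list, which holds SMAD7, had a median of 0.13 over 26 genes. PMEPA1, a further TGF-beta target, overlapped and differed by 0.62 (SE 0.18, limma adjusted p = 0.392). SKIL, another, differed by 0.03, and ID1, a BMP target, by -0.78. FZD8, a WNT receptor, ran from 63.4 to 92.4 in 2F7 and from 109.8 to 332 in the others.

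Fibroblast and matrix markers were also mostly higher, and their part in the results above was not tested. Their median was 0.38, with 0.65 in 2B8 and 0.07 in 1G10. The summed value of the 21 markers was 11630 to 13412 in 2F7, 13785 to 38331 in 2B8 and 8001 to 23954 in 1G10. No defining marker was at 0 in every KO tumour; THY1 was at 0 in 3. With the fibroblast score as a covariate, the mesenchymal median was 0.30 and the envelope median -0.57. In bulk tumours, fewer cells of a type and less RNA per cell cannot be told apart, and whether mouse host RNA was aligned to the human genome was not tested.

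Interferon response genes had unequal medians in the lines. The list median was 0.42 for 2B8 and 0.04 for 1G10, and the difference between these medians was not tested. IFIT3, an antiviral gene induced by interferon, had values of 191, 157 and 184 in 2F7, 417, 278, 442 and 653 in 2B8, and 314, 253, 194 and 300.4 in 1G10. All 8 lay above the 3, with 2B8 5545 highest. EPSTI1 also did not overlap, and neither did IRF9, which is the DNA-binding part of the interferon-activated complex. These were 3 of 43 tested list genes, beside 1.13% of all genes higher without overlap. Cell cycle genes had a median of -0.03, and p53 targets of 0.08. In hypoxia and glycolysis genes, with a median of 0.15, 2 of 36 tested did not overlap. These were the collagen prolyl hydroxylase subunits P4HA1 and P4HA2, which differed by 0.34 and 0.50.

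Other lists held a few genes that did not overlap, beside 1.13% of all genes higher and 1.11% lower. HMOX1, heme oxygenase, had values of 600.1, 667 and 509 in 2F7, 229.6, 371, 239 and 226 in 2B8, and 239, 332, 479 and 129 in 1G10, all 8 below the 3, while the NRF2 target list had a median of -0.02. In retinoid metabolism, CRABP2 and DHRS9 were the 2 of 17 tested genes lower in all 8 tumours. DHRS9, a retinol dehydrogenase, ran from 34.5 to 41.99 in 2F7 and from 5.41 to 19.9 in the others. CYP26B1, which degrades retinoic acid, differed by 1.23 (SE 0.27, limma adjusted p = 0.339) with overlap. The Flower, cell competition and calcium list had a median of 0.02 over 32 genes, 16 positive and 16 negative. SEMA3A, a secreted guidance factor, ran from 26.1 to 51.9 and from 12.4 to 18.7. Among 38 tested differentiation transcription factors, POU3F1 and BNC1 were higher in all 8 tumours, by 0.52 and 0.46, and BARX2 lower, by -0.68.

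The tumours of a line were not alike. For the envelope list, the mean log2(value + 1) was 10.12, 10.41 and 10.56 in 2F7, 9.63, 10.07, 9.53 and 9.51 in 2B8, and 9.60, 10.17, 10.51 and 8.10 in 1G10. 1G10 5547 and 1G10 5548 sat among the 2F7 tumours and 1G10 5549 below all others. In WT it was 9.88, 9.85 and 9.68 in 5B2 5529, 6C9 5530 and 6C9 5531, and 10.60 to 11.04 in the rest. Suprabasal scores ran from 11.24 to 11.68 in 2F7, 10.65 to 11.25 in 2B8, 8.95 to 11.60 in 1G10 and 10.76 to 12.08 in WT. In the same order, protease scores were 9.43 to 9.88, 8.45 to 9.10, 7.58 to 9.72 and 8.85 to 10.72. Barrier lipid scores were 8.97 to 9.15, 8.37 to 8.99, 7.20 to 9.22 and 8.71 to 9.60. The envelope median difference was -0.55 without 5549 and -0.88 without 5548. 1G10 5549 also had the highest cell cycle score, 9.22, where the other 10 ran from 7.83 to 8.43. Skeletal muscle markers were high in 2F7 5538 (8.55) and 2B8 5544 (8.90), followed by 1G10 5549 (6.53). Over 18 tested muscle markers, 17 of them negative, the median difference was -1.40, with -1.07 for 2B8 and -1.91 for 1G10. The summed value of the 19 muscle markers was 1466 to 16853 in 2F7, 841 to 17580 in 2B8 and 836 to 3441 in 1G10, none of them was at 0 in every KO tumour, and their part in the results was not tested. Without these 3 tumours, chosen after seeing the data, the envelope median was -0.57, the protease median -0.64 and the basal median 0.32.

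**Figure D4:**
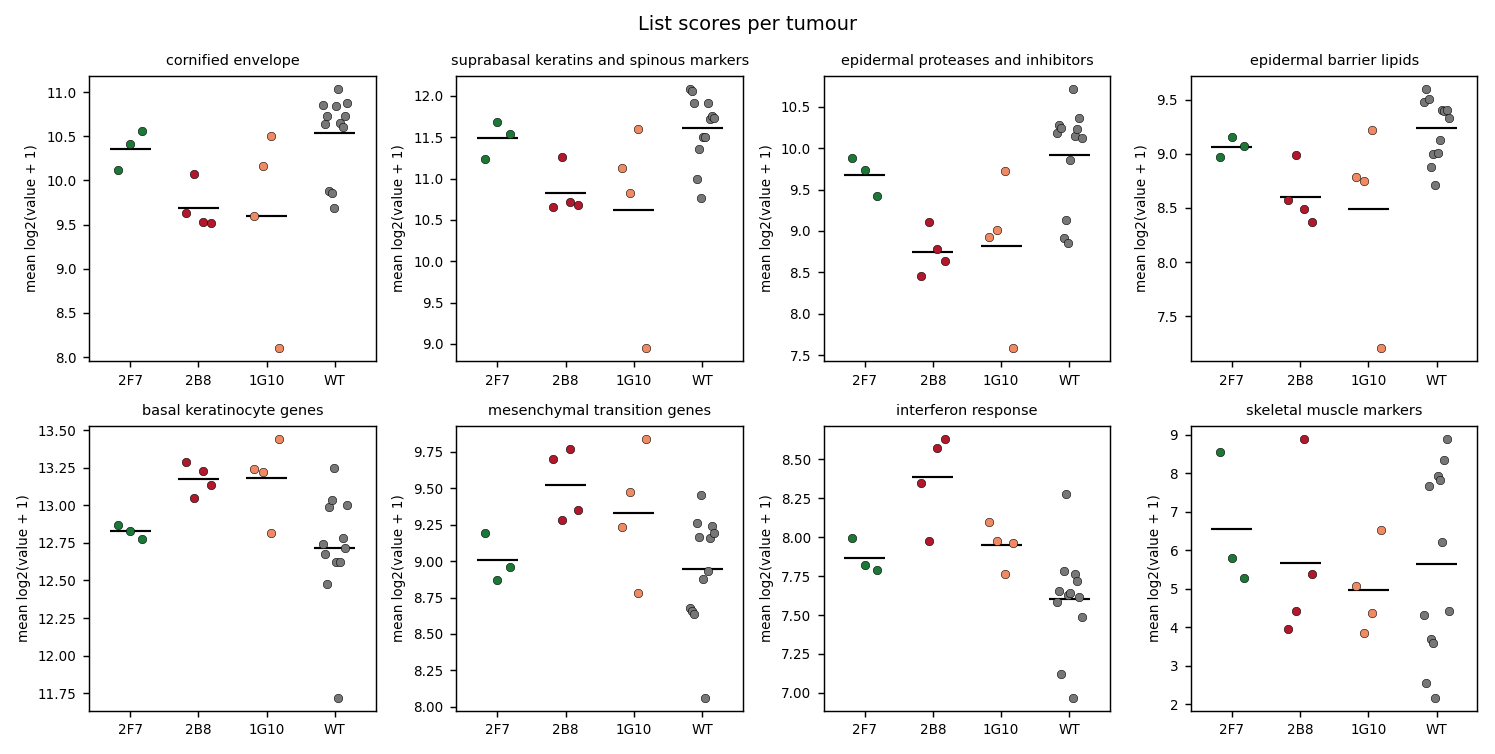
Mean log2(value + 1) over the tested members of 8 lists, 1 point per tumour with the group mean as a bar, in 2F7 (n = 3), 2B8 (n = 4), 1G10 (n = 4) and WT (n = 12). The WT points include 6C9 5533, a library with an estimated 2.04 M reads. In the 4 differentiation lists 1G10 5548 sits among the 2F7 tumours or, for barrier lipids, above them, and 1G10 5549 lies lowest of the KO tumours. 1G10 5547 also sits among the 2F7 tumours for the cornified envelope, as does 2B8 5543 for suprabasal genes and barrier lipids.

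Genes of chromosome 20 were mostly higher in 2B8 and 1G10. Their median difference was 0.17 over 416 genes, 78.1% of them positive, with 0.10 for 2B8 and 0.25 for 1G10, while the medians of the other nuclear chromosomes ran from -0.02 to 0.03. Of 267 windows of 10 Mb with at least 20 tested genes, 14 had a median past 0.1 either way. The largest was -0.41, on chromosome 21 from 0 to 10 Mb (32 genes, -0.42 for 2B8 and -0.37 for 1G10), and was not tested. Chromosome 20 windows ran from 0.10 to 0.22. The split on chromosome 20 did not follow the lines. As a median deviation from the mean of the 11 tumours, chromosome 20 stood at -0.24, -0.25 and 0.11 in 2F7, at 0.28, 0.18, -0.26 and -0.27 in 2B8, and at -0.26, 0.27, 0.27 and 0.20 in 1G10. Each line therefore held tumours at both levels. An alternative added after seeing the data left the genes of chromosome 20 out of the test. SMAD7 lies on another chromosome, so its values and the tumours stayed the same (limma adjusted p = 0.036). That fit therefore cannot show whether the split among tumours bears on SMAD7, which was not tested.

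**Figure D5:**
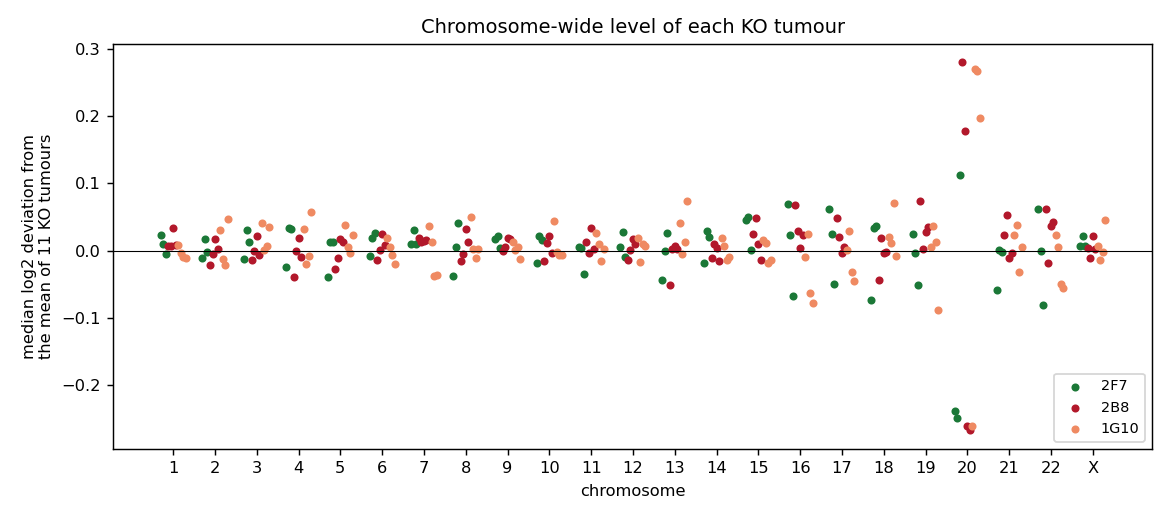
Median log2 deviation of each KO tumour from the mean of the 11, by nuclear chromosome, 1 point per tumour coloured by line. On chromosome 20 the tumours fall at separate levels, from -0.27 to -0.24 and from 0.11 to 0.28, and every line has tumours at both.

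The KO libraries held an estimated 13.2 to 17.9 M reads, and mitochondrial transcripts took 1.39% to 2.92% of the summed values. The WT library 6C9 5533 held only an estimated 2.04 M reads, with 17582 genes detected. Its median Spearman correlation with the other libraries was 0.819, so WT ranges that it bounds are uncertain. Mitochondrially encoded genes had a median difference of 0.37, all 13 positive, highest in 2B8 5542 and 2B8 5543. Squamous keratinocyte identity genes, KRT5 and KRT14 among them, were abundant in every KO tumour, as the labelled cell type has them.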

How the data were processed

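Poly(A) RNA of 23 xenograft tumours was sequenced from directional libraries, per the labels' protocols. The authors deposited 1 table of normalized signal values per gene. The submitters' processing notes name STAR, DESeq2 and hg38, with no versions; the strand setting and the handling of mouse reads are not given in the sources used here. Only 70.7% to 73.7% of low values in the KO libraries came out as whole reads within 0.02 of a read, so no count model was run, and depth is an estimate from the steps between low values. Columns were matched to tumours by library name.

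Values were taken as log2(value + 1), and the 15947 genes averaging 10 or more across the 11 KO tumours were tested. limma 3.58.1 in R 4.3.3 was fitted with a trended variance to 8 against 3 tumours, and to 3 line means, with Benjamini-Hochberg adjustment over all tested genes at 0.05. Fold changes on this scale understate changes of low genes. The fitting code was tested on simulated data. Named genes were to be CACFD1, up to 12 called genes in each direction whose groups do not overlap and whose mean is at least 50, and for each list up to 3 called members or else the 2 most abundant; other names were chosen after their values were seen. The members and lists were chosen with earlier results of these data known. Some genes are not reported here.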

Additional observations from a re-analysis of the deposited data

Results flagged for a closer look

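In lines 2B8 and 1G10, Dixon's test at the 95% level was applied to 400 sets of 4 tumour values. Each set was 1 gene or list score within 1 line, and 21 sets had 1 tumour far from the other 3. Chance gives about 1 in 20, so this number is near what chance gives. 8 of the 21 concerned 1G10 5549, and 4 each concerned 2B8 5543 and 1G10 5548.

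RTN4RL1 (normalized value) stood at 275 in 2B8 5545, where the other 3 ran from 178 to 184. GLTP (normalized value) stood at 5414 in 2B8 5543, where the other 3 ran from 3848 to 4025. HMOX1 (normalized value) stood at 371 in 2B8 5543, where the other 3 ran from 226 to 239. KLK11 (normalized value) stood at 568 in 2B8 5543, where the other 3 ran from 284 to 313. SKIL (normalized value) stood at 1135 in 2B8 5545, where the other 3 ran from 1676 to 1732. The mean log2 score of the list suprabasal keratins and spinous markers stood at 11.25 in 2B8 5543, where the other 3 ran from 10.65 to 10.72. The mean log2 score of the list fibroblast and matrix markers stood at 8.74 in 2B8 5542, where the other 3 ran from 7.69 to 7.75.

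INKA2 (normalized value) stood at 154 in 1G10 5547, where the other 3 ran from 112 to 118. CCNA1 (normalized value) stood at 64.4 in 1G10 5548, where the other 3 ran from 28.9 to 30.3. LCE1C (normalized value) stood at 16.5 in 1G10 5549, where the other 3 ran from 137 to 191. KRT4 (normalized value) stood at 4.68 in 1G10 5549, where the other 3 ran from 144 to 267. KRT13 (normalized value) stood at 439 in 1G10 5548, where the other 3 ran from 55.2 to 68.7. F11R (normalized value) stood at 3194 in 1G10 5549, where the other 3 ran from 3562 to 3643. NT5E (normalized value) stood at 462 in 1G10 5549, where the other 3 ran from 103 to 120.2. PHLDA3 (normalized value) stood at 1298 in 1G10 5549, where the other 3 ran from 1804 to 1921. SQLE (normalized value) stood at 5191 in 1G10 5548, where the other 3 ran from 3728 to 3890.2. CFD (normalized value) stood at 37.1 in 1G10 5547, where the other 3 ran from 80.2 to 92.1. SKIL (normalized value) stood at 1019.8 in 1G10 5549, where the other 3 ran from 1836 to 2019.8. The mean log2 score of the list cell cycle and replication stood at 9.22 in 1G10 5549, where the other 3 ran from 7.83 to 7.91. The mean log2 score of the list p53 targets stood at 8.56 in 1G10 5549, where the other 3 ran from 8.82 to 8.87. The mean log2 score of the list cholesterol synthesis stood at 10.42 in 1G10 5548, where the other 3 ran from 9.94 to 9.98.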

How the results depend on the processing

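SMAD7 was higher in 2B8 and 1G10 under all 29 alternatives (0.75 to 0.87). Its limma call was lost on rescaling to the same total (0.80, adjusted p = 0.246) or upper quartile (0.80, adjusted p = 0.231), with all 23 tumours in the fit (0.81, adjusted p = 0.99991), with 1 mean per line (0.81, adjusted p = 0.104), with the fibroblast score as a covariate (0.79, adjusted p = 0.122), without line 2B8 (0.82, adjusted p = 0.483), without line 1G10 (0.80, adjusted p = 0.164), and, as an alternative added after seeing the data, without the 3 tumours with the highest muscle score (0.81, adjusted p = 0.198). The count of called genes was then 0. Over the fits that leave out 1 tumour it was 0 or 1, and SMAD7 ran from 0.75 to 0.87. The call without 2F7 5540 was SDC2 and that without 2B8 5544 was KRT19. Leaving out 1 tumour gave 0 to 1 genes for 2B8 against 2F7 and 0 to 1 in the F test. With no filter on low values 3 genes were called, and with line as a random block 3 (SMAD7, KRT19 and ZNF703), in a fit whose estimated correlation within lines was negative, -0.12. Library quality weights called 6509 genes, with 4274 for 2B8, 3085 for 1G10 and 5013 in the F test; 2F7 5539 then had a weight of 37.2 against 0.30 to 1.24 for the others, and the weights did not converge.

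Genes whose groups do not overlap numbered 126 to 1056 higher and 118 to 1185 lower over the alternatives. Leaving out 1 tumour gave 198 to 1056 higher and 194 to 1185 lower, with 1056 and 1185 without 2F7 5540, 444 and 376 without 2F7 5538, 317 and 266 without 2F7 5539, 352 and 363 without 1G10 5548, and 279 higher without 2B8 5543. Without line 2B8 they were 526 and 495, without line 1G10 728 and 657, and without the 3 muscle-high tumours 619 and 524; fewer tumours make separation easier. With no filter on low values 321 were lower. List medians kept their sign except in 18 lists, of which the endothelial and macrophage lists and those with medians near 0 are examples. The fibroblast and matrix list is also among them, but only in the fit with its own score as a covariate (0.38 to -0.00059). That score is made from the same genes, so a median near 0 was fixed in advance there. The medians over all alternatives were -0.88 to -0.55 for the cornified envelope, -0.96 to -0.53 for suprabasal genes, -1.26 to -0.64 for proteases, -0.60 to -0.27 for barrier lipids and 0.31 to 0.43 for basal genes. No paired analysis was possible because each tumour has a specimen number of its own. With 3 tumours of 2F7, differences within their spread cannot be shown.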
